A study of Spermophilus dauricus with 30 samples.

Results

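In the skeletal muscle of Daurian ground squirrels (*Spermophilus dauricus*), 51 numeric identifiers were lowest during hibernation in both muscles sampled, out of 26378 numeric identifiers and 27394 identifiers in all. They were chosen from the measured values. Counts were divided by a size factor for each library, giving normalised counts, and the median of each group of 3 libraries was taken. A member had to have medians of at least 100 in each of the other 4 states, and each of these had to be at least 1.5 times the hibernation median, in both muscles. The hibernation trough is therefore fixed by the choice, is given as a description, and is not tested.

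The animals had been sampled while active in summer (SA), ahead of hibernation (PRE), in hibernation (HIB), in an arousal between torpor bouts (IBA) or once hibernation was over (POST). For every state there were 3 SOL and 3 EDL libraries, 30 in 10 groups; the abbreviations commonly stand for soleus and extensor digitorum longus. All animals are labelled as wild type, and the labels give no age, sex, sampling time or animal number. The labels do not say that replicates came from separate animals, so p-values measure only the spread between these samples.

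A hibernating ground squirrel spends winter in bouts of torpor, in which heart rate and metabolism are strongly lowered, body temperature falls close to that of the surroundings, and RNA and protein synthesis slow. The bouts are broken by short arousals, in which the animal rewarms by shivering and brown fat and then cools again. The soleus is a posture muscle rich in slow fibres and the EDL a fast muscle. Both keep much of their mass through months of disuse, which is why hibernators are studied in work on muscle wasting. The files do not pair the identifiers with gene names, so neither the function of a member nor the markers of the labelled tissue could be looked up. Members are called by their rank, from 1 for the deepest trough to 51 for the shallowest, and 4 are given by number. In bulk tissue, fewer cells of a type and less RNA per cell cannot be told apart.

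The libraries held 31442362 to 41972200 counts, with counts for 17865 to 19488 identifiers. For a given state and number, the SOL and the EDL library deviated together from their group means, with correlations over 15785 identifiers of 0.13 to 0.64 in 15 of 15 pairs, so the muscles are not independent repeats. The size factors spanned 0.743 in POST SOL replicate 1 to 1.40 in POST SOL replicate 3.

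The depth of a trough is the lowest of the 4 other medians divided by the HIB median, and for rank the smaller value of both muscles counts. The depths had a median of 1.87-fold in SOL, where they spanned 1.502-fold to 65.4-fold. In EDL the median was 1.94-fold and the span 1.51-fold to 37.5-fold. Troughs of at least 2-fold in both muscles were found for 15 members, of at least 3-fold for 8, of at least 4-fold for 4 and of at least 8-fold for 2. So most of the members lie near the threshold of the rule. The 3 nearest it on the inside had depths of 1.502-fold, 1.51-fold and 1.51-fold, and the nearest identifiers outside it stood at 1.48-fold in all 3 cases. Of the members, 39 had depths in SOL and EDL within 1.5-fold of each other, 22 were deeper in SOL and 29 deeper in EDL. Across the members the log2 depths of the muscles had a Pearson r of 0.82, and of 0.63 over 49 members without the 2 deepest, a description since each pair of values shares libraries that deviate together.

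**Figure D1:**
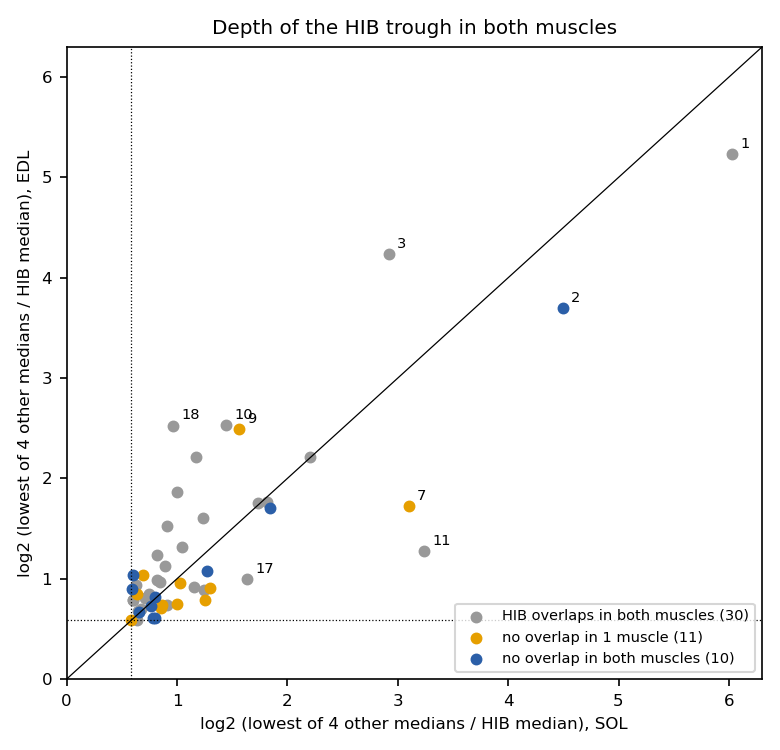
Depth of the hibernation trough in SOL (x axis) and EDL (y axis) for the 51 members, each as log2 of the lowest of the 4 other state medians over the HIB median, with the threshold of 1.5-fold dotted and equal depth as a solid line. Blue points are the 10 members whose HIB libraries lay below all others in both muscles, orange the members with this in 1 muscle, grey the 30 with it in neither, and the numbers are ranks; most points crowd near the threshold.

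Medians of 3 libraries allow a single library to disagree, and for most members in each muscle at least 1 did. In SOL the 3 HIB libraries lay below all 12 others for 15 of the 51 members, and in EDL for 16. Among all 10465 numeric identifiers with the same level this held for 1.01% in SOL and 1.75% in EDL, which is background only, since the rule used these libraries. It held in both muscles for 10 members and in neither for 30. The share of all identifiers with this in both muscles was not counted, so these numbers are a description only. The 10 have ranks 2, 8, 14, 28, 34, 40, 44, 45, 46 and 49. Their depths spanned 1.51-fold to 22.5-fold in SOL and 1.52-fold to 13.0-fold in EDL. The lowest of the 15 libraries was a HIB library for 41 members in SOL and for 41 in EDL.

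**Figure D2:**
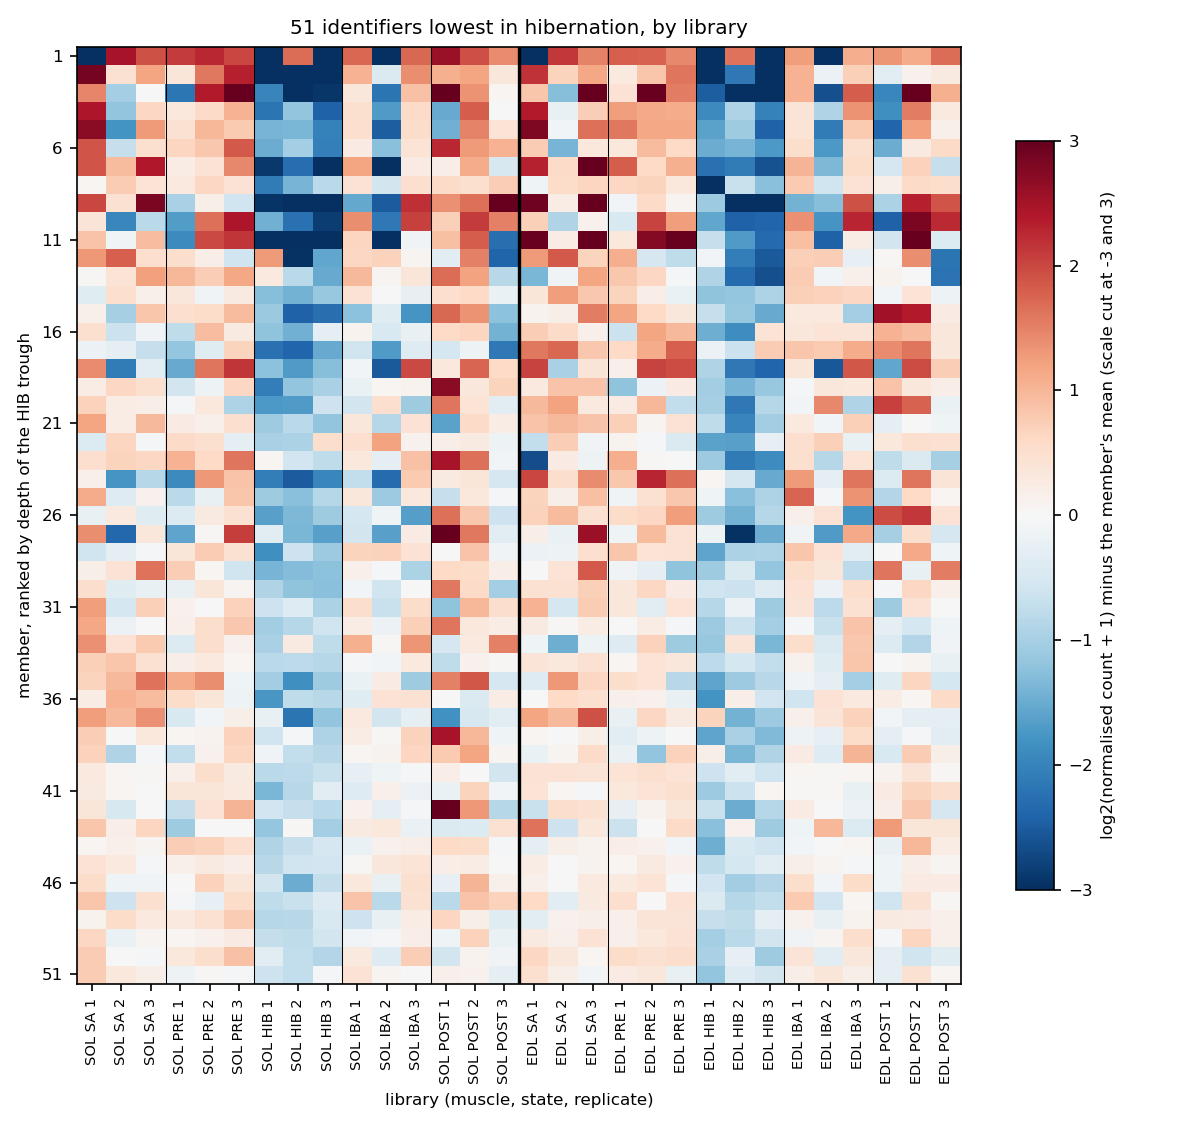
Heat map of the 51 members (rows, by rank of trough depth) in the 30 libraries (columns, SOL left and EDL right of the thick line), as log2(normalised count + 1) minus the member's mean over all libraries, with the colour scale cut at -3 and 3. The HIB columns are blue in nearly every row, and IBA replicate 2 is blue in many of the upper rows in both muscles.

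Identifier 101960618, which has the deepest trough by medians, did not follow the states in every library. In SOL its normalised counts in replicates 1, 2 and 3 were 26, 4795 and 3273 in SA, 3703, 4180 and 3449 in PRE, and 27.4, 2772 and 43.5 in HIB. They were 2848, 43.6 and 2848 in IBA and 5213, 3310 and 2302 in POST. Each library was thus either at 2302 or more or at 43.6 or less, with nothing between, and SA replicate 1 and IBA replicate 2 were as low as the low HIB libraries.

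In EDL the same identifier stood at 13.9, 3742 and 2414 in SA, 3001, 2976 and 2342 in PRE, and 20.1, 2686 and 49.5 in HIB. It stood at 2072, 33.3 and 1855 in IBA and at 2172, 1890 and 2750 in POST. The low libraries had the same states and numbers as in SOL: SA replicate 1, HIB replicates 1 and 3 and IBA replicate 2. HIB replicate 2 was at the level of the other states in both muscles. The depth of 65.4-fold in SOL and 37.5-fold in EDL rests on 2 of 3 HIB libraries, and without HIB replicate 1 its log2 depth was 1.02 in place of 6.03 in SOL, and 0.44 in place of 5.23 in EDL. In the edgeR fits below that did not pair the muscles, the smallest adjusted p of this identifier was 0.803. With the SOL and EDL library of each number paired, it was called in POST, beside 18.2% of all identifiers. The log2 difference of SOL minus EDL was then 0.63 (edgeR adjusted p = 0.0420).

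Identifier 101970431, rank 2, had the deepest trough that every library shared. In SOL its normalised counts in replicates 1, 2 and 3 were 32.7, 38.0 and 8.71 in HIB, against 2655, 498 and 814 in SA. They were 459.8, 1079 and 1816 in PRE, 737, 268 and 942 in IBA and 749.7, 817 and 454 in POST. The lowest library outside HIB was IBA replicate 2, 7.04 times the highest HIB library.

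In EDL, 101970431 stood at 30.2, 80.9 and 18.4 in HIB, from raw counts of 19 to 92 per library. It stood at 1632, 569 and 804 in SA, at 442, 640.4 and 1102 in PRE, at 737, 317 and 587 in IBA and at 289, 391 and 433 in POST. The groups did not overlap here either, and the lowest other library, POST replicate 1, was 3.57 times the highest HIB library. The depth was 22.5-fold in SOL and 13.0-fold in EDL. Among the other states it differed most in POST against SA in EDL, by -1.45 ± 0.50 on the log2 scale (SE), which did not pass with edgeR (adjusted p = 0.0821) and passed with DESeq2 (adjusted p = 0.0277).

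Of the members left, identifiers 101966173 and 101964964, ranks 10 and 3, had the largest rises of the median from HIB to IBA, and in both the IBA group was split. For 101966173 the SOL values in replicates 1, 2 and 3 were 120.4, 69.2 and 44.5 in HIB and 864, 73.1 and 1367 in IBA. In EDL they were 111, 60.7 and 62.1 in HIB and 848, 95.2 and 1618 in IBA. So replicates 1 and 3 of IBA were far above HIB, while replicate 2 lay within the range of HIB in both muscles.

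Outside HIB and IBA, 101966173 also had single low libraries. In SOL it stood at 427, 83.5 and 188 in SA, at 102, 1041 and 1762 in PRE and at 544, 1404 and 938 in POST. In EDL it stood at 541, 175 and 359 in SA, at 240.0, 1349 and 782 in PRE and at 60.2, 2352 and 1558 in POST. SA replicate 2 and PRE replicate 1 in SOL, and POST replicate 1 in EDL, were at HIB levels.

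For 101964964 the SOL values were 419, 203 and 217 in HIB and 2099, 358 and 3031 in IBA, and the EDL values were 297, 156 and 154 in HIB and 3407, 264 and 5816 in IBA. In SOL it stood at 4514, 809.6 and 1637 in SA, at 362, 8557 and 13469 in PRE and at 14032, 4165 and 1720 in POST. In EDL it stood at 2937, 680.3 and 14233 in SA, at 2212, 12758 and 4751 in PRE and at 425, 13570 and 3446 in POST. Again IBA replicate 2 lay within the HIB range in both muscles, and in SOL so did PRE replicate 1. Its trough of 7.56-fold in SOL and 18.9-fold in EDL thus stands beside a spread within PRE in SOL that is larger than the trough. In the edgeR fits that did not pair the muscles, the smallest adjusted p was 0.224 for 101966173 and 0.374 for 101964964. With the pairing, edgeR called neither of them.

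**Figure D3:**
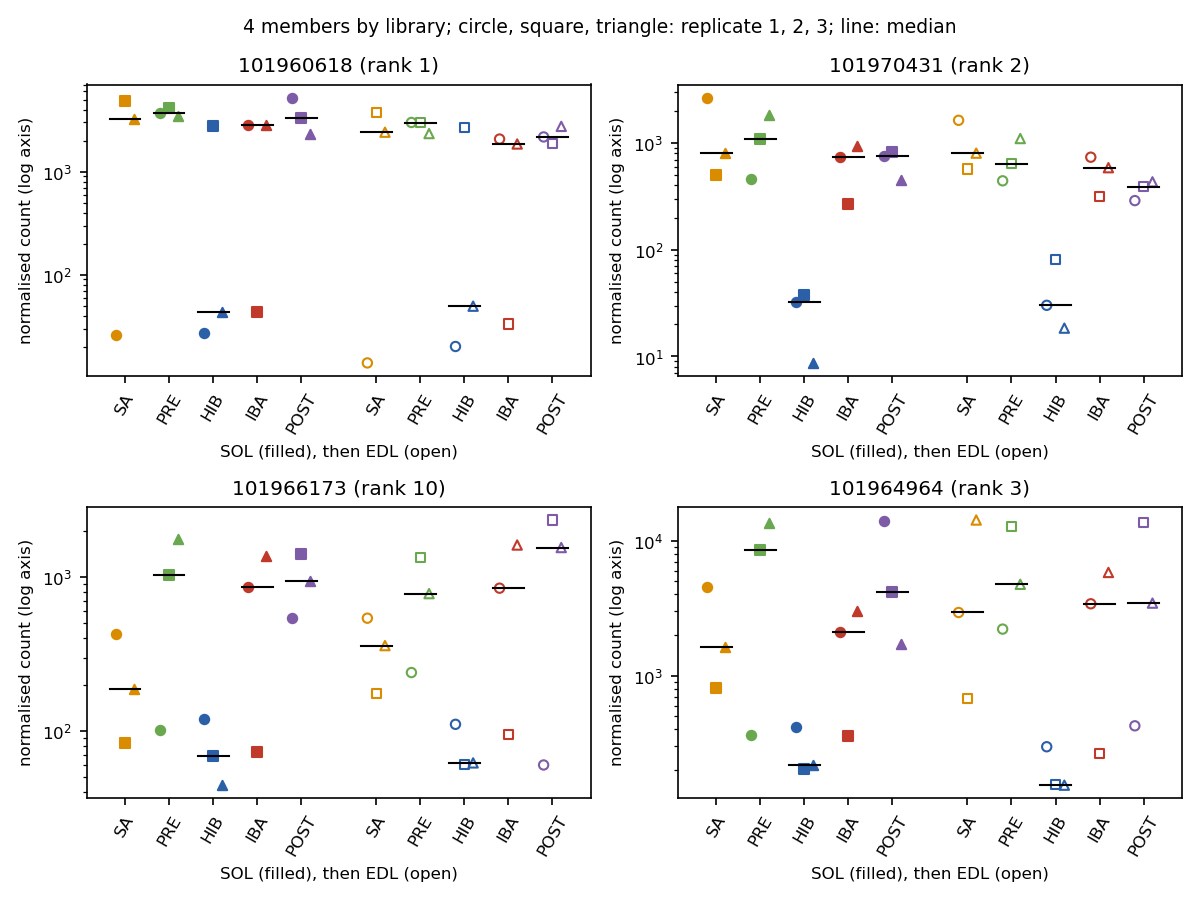
Normalised counts on a log axis of the 4 members given by number, in SOL (filled) and EDL (open) by state, with circles, squares and triangles for replicates 1, 2 and 3 and a line at the median. 101960618 is at 1855 or more, or at 49.5 or less, in each library, 101970431 is lower in all HIB libraries than in any other, and the remaining pair have IBA replicate 2 at the level of HIB.

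The other deep members had patterns of both kinds. Member 8 had HIB values of 33.8, 55.3 and 84.2 in SOL, below its other SOL libraries at 100.4 to 251. Its EDL values were 16.8, 92.3 and 61.1 in HIB and 98.01 to 256 elsewhere, so the groups did not overlap. The HIB libraries of member 14 held 772, 699.6 and 854 in SOL and 822, 841 and 987 in EDL. All its other libraries were higher, at 1455 to 2834 in SOL and 1638 to 4500 in EDL, again without overlap. Its depth was 2.41-fold and 2.11-fold.

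Member 5 stood at 677, 682 and 437 in HIB in SOL, but also at 515 in SA replicate 2, 321 in IBA replicate 2 and 650.1 in POST replicate 1. In EDL it stood at 585, 846 and 329 in HIB, at 414 in IBA replicate 2 and at 341 in POST replicate 1. Its highest libraries were SA replicate 1 in both muscles, at 11635 and 12433. For this member, then, a library of 3 other states in SOL and of 2 in EDL was within or below the HIB range.

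Member 7 stood at 283, 436 and 172 in HIB in SOL, at 212 in IBA replicate 2 and at 1508 or more in the remaining 11 libraries. In EDL its HIB values of 450.2, 491 and 342 lay below all others, the lowest of which was IBA replicate 2 at 829. The HIB values of member 11 were 254, 135 and 282 in SOL with IBA replicate 2 at 170.4, and 1606, 795 and 508 in EDL with IBA replicate 2 at 482. Its depth was 9.45-fold in SOL and 2.42-fold in EDL.

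Members 4 and 18 also had low libraries outside HIB in both muscles. Member 4 had SOL values of 289, 579 and 245 in HIB, 1843, 404 and 1976 in IBA and 462, 4648 and 1331 in POST. Its EDL values were 350, 695 and 321 in HIB, 1730, 709 and 3357 in IBA and 367, 3831 and 1616 in POST. POST replicate 1 thus lay within the HIB range in both muscles, and IBA replicate 2 lay within it in SOL and just above it in EDL. Member 18 had SOL values of 2143, 1569 and 2086 in HIB and 4794, 877 and 19858 in IBA, and EDL values of 2701, 1139 and 978 in HIB and 6558, 868 and 18291 in IBA. For this member IBA replicate 2 was below all HIB libraries in both muscles.

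Member 12 differed from these in the HIB group. In SOL its HIB values were 951, 49.6 and 132, and its EDL values 369, 91.5 and 66.9, so replicate 1 was the highest HIB library in both muscles. IBA stood at 599.7, 630.2 and 411 in SOL and at 643, 657 and 329 in EDL, with no low replicate 2. Its POST replicate 3 was low in both muscles, at 73.0 and 85.0.

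Members 40 and 49 are given as examples of shallower members among the 10 without overlap. Not every shallower member had narrow groups: the HIB values of member 28 in SOL were 97.1, 228 and 165. Member 40 stood at 493, 497 and 543 in HIB and at 584 to 1240 in the other SOL libraries. In EDL its HIB libraries held 559, 686 and 566 and the others 876 to 1207. Its depth was 1.58-fold in each muscle by medians, while the lowest other library was 1.08 times the highest HIB library in SOL and 1.28 times in EDL. Member 49 held 206, 200.6 and 232 in the HIB libraries of SOL, with 295 to 544 elsewhere, and 165, 192 and 229 in those of EDL, with 316 to 528 elsewhere. Its depth was 1.51-fold in SOL and 1.86-fold in EDL, with the SOL value close to the threshold.

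IBA replicate 2 was low for many members and not only for those named. It was the lowest of the 3 IBA libraries for 31 of the 51 members in SOL and for 30 in EDL. Of the 10414 other identifiers of the same level, 34.8% had it lowest in SOL and 35.02% in EDL. It was at or below the highest HIB library for 23 members in SOL, while IBA replicates 1 and 3 were so for 6 and 8. In EDL the counts were 18 for replicate 2, and 7 and 10 for replicates 1 and 3. Among the 15 members with troughs of at least 2-fold, replicate 2 was the lowest in both muscles for 11. Over all members the median log2 of IBA over the HIB median was 0.68 in SOL and 0.85 in EDL for replicate 2, against 1.26 and 1.53 for the median of replicates 1 and 3. The labels do not give the time since arousal began, and its part in this spread was not tested. Without IBA replicate 2 of both muscles the rule found 55 identifiers, 46 of them among the 51.

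The mean over the members of log2(normalised count + 1), minus each member's mean, summarises the set by library. In SOL the HIB libraries lay between -1.35 and -1.28 and the other 12 between -0.69 and 0.82. In EDL they lay between -1.33 and -1.16 and the others between -0.40 and 0.85. In both muscles the lowest library outside HIB was IBA replicate 2. In SOL the SA libraries averaged 0.36 ± 0.36, PRE 0.38 ± 0.43, HIB -1.31 ± 0.04, IBA -0.07 ± 0.54 and POST 0.47 ± 0.47 (SD, n = 3 each). In EDL they were 0.54 ± 0.30, 0.47 ± 0.14, -1.22 ± 0.09, 0.14 ± 0.47 and 0.25 ± 0.46 in the same order. Outside HIB, the library ranges of all 4 states overlapped one another in EDL and in SOL. The members together held 0.0730% to 0.0833% of all counts in the HIB libraries of SOL and 0.0733% to 0.0961% in those of EDL, and 0.117% to 0.533% in the other libraries.

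**Figure D4:**
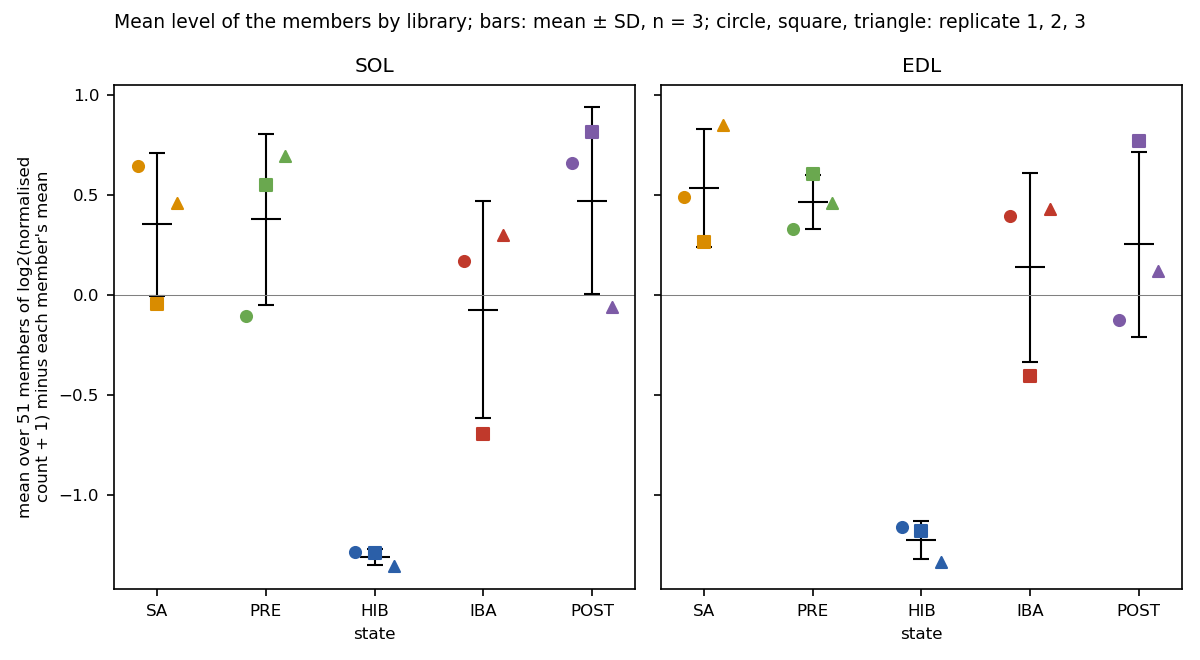
Mean over the 51 members of log2(normalised count + 1), minus each member's own mean, for each library by state in SOL (left) and EDL (right), with circles, squares and triangles for replicates 1, 2 and 3 and bars for mean ± SD (n = 3). The HIB libraries lie at -1.35 to -1.16 by the choice of members, and IBA replicate 2 is the lowest of the other libraries in both muscles.

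The members varied more within groups than other identifiers of their level. This spread comes from the libraries whose medians chose the members, and a median of 3 widely spread values passes a fold threshold more easily, so it is a description and not a property independent of the rule. The median SD of log2 values among the 3 libraries of a group was 0.38 to 0.76 over the 10 groups for the members, and 0.19 to 0.40 for all identifiers of that level. In HIB itself it was 0.46 in SOL and 0.54 in EDL for the members, against 0.19 and 0.20. The members also deviated together: the mean correlation between the within-group deviations of 2 members over 15 libraries was 0.16 in SOL and 0.12 in EDL, against 0.0075 and 0.0035 over all identifiers of the level. Across the 51 members, the deviations of same-numbered SOL and EDL libraries correlated at 0.27 to 0.93, with a median of 0.79, against a median of 0.47 over all 15785 identifiers. The 15785 are all identifiers with a mean count of at least 10, not only those of the members' level, and the members were chosen in both muscles. Nothing is therefore read from the difference between these medians. These correlations share libraries and depth and are given as descriptions.

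The members did not have 1 common order of the other states. In SOL, 13 members had their highest median in SA, 15 in PRE, 5 in IBA and 18 in POST. In EDL, the counts were 20 for SA, 17 for PRE, 6 for IBA and 8 for POST. The same state was highest in both muscles for 24 members, with 10 in SA, 7 in PRE, 3 in IBA and 4 in POST. The highest of the 4 medians was less than 2 times the lowest for 34 members in each muscle, and the largest ratio was 11.6-fold in SOL and 18.3-fold in EDL, both for member 9. Member 9 stood at 2124, 735 and 3793 in SA and at 182, 94.1 and 2438 in IBA in SOL, and at 4000, 625 and 5911 and at 198, 218 and 1999 in EDL. Its HIB values were 68.6, 49.6 and 61.9 in SOL and 250.2, 30.8 and 38.8 in EDL.

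Which of the other states differed among themselves was tested with edgeR's quasi-likelihood test over all identifiers, 16443 in SOL and 16299 in EDL. All 51 members were tested. These comparisons share libraries with one another, and POST against SA closes the yearly cycle. In PRE against SA, 0 members passed in SOL and 0 in EDL, beside 0.0547% and 0% of all identifiers. The SOL background depended on the libraries that share the estimate of the spread. With POST SOL replicate 1 left out of the fit, 979 of 16745 identifiers and 0 members passed in SOL. With IBA SOL replicate 2 left out instead, 1 of 16720 identifiers and 0 members passed. Both fits were added after seeing the data. Unadjusted p values under 0.05 were found for 7 members in SOL and 5 in EDL, beside 20.3% and 14.5% of all identifiers, and DESeq2 called 1 member in each muscle, beside 6.26% and 3.46% of all identifiers it gave an adjusted p. The median log2 fold change of the members was 0.04 in SOL and -0.11 in EDL, beside 0.02 and 0.01 over all identifiers.

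In IBA against PRE, again 0 members passed in either muscle, beside 0% of all identifiers in SOL and 0.0123% in EDL. There were 5 members in SOL and 2 in EDL with an unadjusted p under 0.05, all of them lower in IBA, beside 11.8% and 13.1% of all identifiers. DESeq2 called 0 in both, beside 1.04% and 1.84%. The median log2 fold change was -0.29 in SOL and -0.12 in EDL, beside 0.02 and 0.02. A negative value was found for 40 members in SOL and 33 in EDL. The members deviate together, and the share of negative values over all identifiers was not counted. Without IBA replicate 2 of the muscle compared, the median was -0.085 in SOL and -0.045 in EDL. In POST against IBA, 0 members passed in both muscles, beside 0% of all identifiers in both. An unadjusted p under 0.05 was found for 9 in SOL, all higher in POST, and for 5 in EDL, beside 7.92% and 15.6% of all identifiers. By DESeq2, 1 and 2 were called, beside 0.390% and 3.96%. The median was 0.33 in SOL and 0.03 in EDL, beside 0.00 and 0.00 over all identifiers. Without IBA replicate 2 of the muscle compared, this median was 0.115 in SOL and -0.096 in EDL. It moved further without POST replicate 2, to -0.031 in SOL and -0.374 in EDL. Leaving out each other IBA or POST library, it reached up to 0.466 in SOL (without POST replicate 3) and 0.175 in EDL (without IBA replicate 3).

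In POST against SA, 3 of 51 members fell in EDL and 0 rose, beside 8.65% of all identifiers called, 4.25% higher and 4.41% lower. At an unadjusted p under 0.05 there were 7 members, beside 26.4% of all, and DESeq2 called 6, beside 14.3%. In SOL 0 passed, beside 0.870%, with 9 at an unadjusted p under 0.05, beside 22.3%, and 4 called by DESeq2, beside 8.42%. Without POST SOL replicate 3 the edgeR count in SOL was 8 in place of 0, beside 12.8% of all identifiers in that fit. Member 37 fell by 1.65 ± 0.44 on the log2 scale in EDL (SE, edgeR adjusted p = 0.0348). Its EDL values were 940.3, 811 and 1563 in SA and 391, 341 and 334 in POST, without overlap, and its SOL values were 981, 811 and 1069 against 116, 294 and 329. In SOL it had the smallest adjusted p of the members, 0.0595 (edgeR), and DESeq2 called it (adjusted p = 0.00121). Member 37 was thus highest in SA in both muscles, and its POST values in SOL lay within the range of its HIB values of 355, 89.9 and 179.9.

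Member 7 fell by 2.52 ± 0.66 (SE, edgeR adjusted p = 0.0337) in EDL, from 10410, 3133 and 21832 in SA to 1490, 3403 and 1313 in POST. POST replicate 2 lay above the lowest SA library here. Member 21 fell by 1.04 ± 0.27 (SE, edgeR adjusted p = 0.0328), from 2166, 2380 and 2195 to 995, 1201 and 1105, without overlap. Without 1 library the count of 3 became 0 to 2: it was 0 without SA replicate 1, SA replicate 3, POST replicate 1 or POST replicate 3, 1 without POST replicate 2 and 2 without SA replicate 2. Over all identifiers 411, 239, 861, 561, 663 and 1423 were called in these fits, in the same order, in place of 1410. The count of 3 in 51 is near the background share, so these calls do not set the members apart from other identifiers. With only the 6 libraries of SA and POST in the fit, 2 members were called, beside 283 of 15427 identifiers, and member 7 was not (edgeR adjusted p = 0.0795). With the replicate number as a block only member 21 was called (edgeR adjusted p = 0.0331), beside 1081 of 16299 identifiers. Across states, though, the numbers do not pair libraries.

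**Figure D5:**
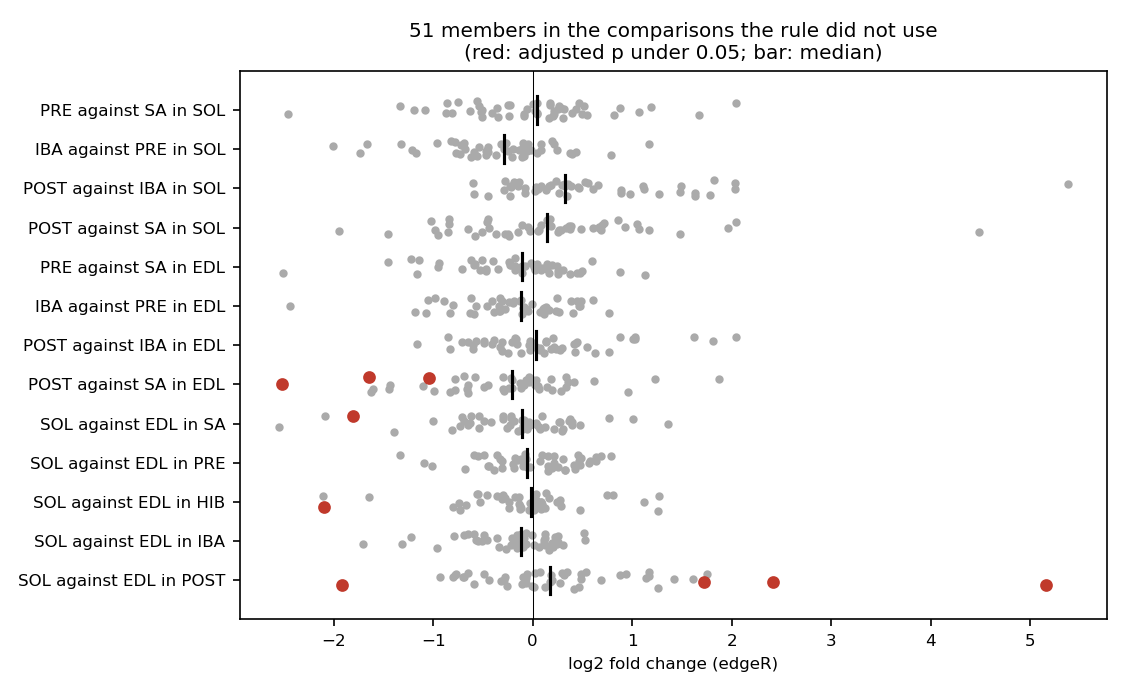
Log2 fold changes (edgeR) of the 51 members in the 13 comparisons of states other than HIB and of SOL against EDL within a state, with a bar at the median and red points for an adjusted p under 0.05. Red points occur in POST against SA in EDL and in SOL against EDL in SA, HIB and POST, and the medians lie between -0.29 and 0.33.

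The muscles were compared within each state in all 30 libraries, over 16946 identifiers. Without pairing, edgeR called 1 member in SA, 0 in PRE, 1 among the HIB libraries, 0 in IBA and 4 in POST, beside 5.30%, 3.88%, 3.09%, 2.31% and 8.41% of all identifiers. At an unadjusted p under 0.05 there were 5, 2, 4, 3 and 10 members in the same order, beside 18.9%, 14.2%, 12.6%, 11.4% and 21.7%. By DESeq2 the counts were 2, 0, 1, 1 and 6, beside 7.86%, 5.79%, 4.93%, 3.99% and 11.2%. With the SOL and EDL library of each number paired as a block, edgeR called 5 members in SA, 3 in PRE, 4 among the HIB libraries, 5 in IBA and 12 in POST, beside 13.1%, 9.94%, 8.39%, 6.72% and 18.2% of all identifiers. So the pairing raised the counts of members and of all identifiers alike, and of the members called in POST with it, 9 were higher and 3 lower in SOL.

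Member 17 was the one called lower in SOL in all 5 states with the block, and without it by edgeR in SA, HIB and POST, and by DESeq2 also in IBA. Its SOL values were 1164, 1067 and 814 in SA, 279, 254 and 458 in HIB and 904, 1186 and 297 in POST. Its EDL values were 3942, 4327 and 2291 in SA, 1170, 844 and 2233 in HIB and 3495, 4013 and 1657 in POST. SOL lay below EDL in 15 of 15 same-numbered pairs. The log2 difference of SOL minus EDL was -1.81 ± 0.49 in SA (SE, edgeR adjusted p = 0.0296), -2.09 ± 0.50 in HIB (edgeR adjusted p = 0.0179) and -1.91 ± 0.50 in POST (edgeR adjusted p = 0.0164). With the block it ran from -2.03 to -1.44 over the 5 states. The unpaired call in SA was lost without replicate 1 or 2 of either muscle or replicate 3 of SOL. In HIB it was lost without SOL replicate 1 or 2 or EDL replicate 3, and in POST without SOL replicate 3 or EDL replicate 2. Member 24 was also lower in SOL with the block, in SA, PRE, HIB and IBA, by log2 differences of -2.16, -1.47, -1.54 and -1.62 (edgeR adjusted p between 0.00367 and 0.0442). Without the block edgeR did not call it in any state, and DESeq2 called it in SA (adjusted p = 0.0413).

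Members 23, 27 and 38 were higher in SOL than in EDL in POST without the block, and leaving out 1 library ended the call of each. Member 27 stood at 69351, 2261 and 599.8 in POST SOL and at 381, 1096 and 532 in POST EDL, a log2 difference of 5.16 ± 1.38 (SE, edgeR adjusted p = 0.0194). Without POST SOL replicate 1 it was 1.14 (edgeR adjusted p = 0.529), and with the block 2.20 (edgeR adjusted p = 0.231). Member 27 was also not called without POST EDL replicate 1, 2 or 3 (edgeR adjusted p = 0.08235, 0.0571 and 0.0781). Member 38 stood at 4277, 1539 and 709 against 624, 750.1 and 618, a log2 difference of 1.72 ± 0.39 (SE, edgeR adjusted p = 0.00677), and of 0.80 without that library (edgeR adjusted p = 0.105). Member 23 stood at 13459, 7713 and 2304 against 1444, 1792 and 1215, a log2 difference of 2.41 ± 0.58 (SE, edgeR adjusted p = 0.00916), and of 1.80 without it (edgeR adjusted p = 0.0504). With the block, members 38 and 23 were still called, at 1.35 and 2.11 (edgeR adjusted p = 0.0107 and 0.00687). With POST SOL replicate 1 left out, the unpaired POST count was 1, member 17, beside 1605 of 17231 identifiers. In all 3 members the highest POST SOL library was replicate 1.

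The difference between the muscles in the trough, as HIB minus the mean of the 4 other states in SOL minus the same in EDL, had a median over the members of -0.08 and a range of -1.26 to 1.15 on the log2 scale. The rule kept only identifiers with a trough in both muscles, so these differences were limited by the choice. The edgeR fit called 0 members, beside 0% of all identifiers, with 0 at an unadjusted p under 0.05, beside 2.27%, and DESeq2 called 0, beside 0.00434%. Nothing is read from these counts.

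Set beside the same rule for other states, 46 identifiers were lowest in SA, 22 in PRE, 11 in IBA and 20 in POST, against the 51 lowest in HIB. A mirrored rule, with HIB at least 1.5 times each other state and at least 100, found 19. In 1 muscle alone the rule was met by 136 identifiers in SOL and by 209 in EDL. Among the identifiers with a text prefix, which the rule leaves out, 4 met it.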

How the data were processed

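RNA sequencing counts of 30 muscle libraries were used. The labels name AG RNAex for the extraction and a NEBNext Ultra kit for the libraries. In the deposited table each value is a raw, whole-number count. HISAT2 2.0.4 and HTSeq 0.9.1 are named in the submitters' processing notes. Build, annotation and strand setting: not given in the sources used here, so counts of near-identical, overlapping or antisense genes are uncertain.

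Size factors for the rule were medians of ratios over 14678 numeric identifiers without a zero (0.743 to 1.40), and log2 values used a pseudocount of 1. Counting error is small beside the spread between libraries, except for low counts; the smallest of a member was 9, in a HIB library. Tests used R 4.3.3 and edgeR 4.0.16 with filterByExpr (minimum count 10), TMM and its quasi-likelihood test. P-values were adjusted by Benjamini-Hochberg over all identifiers tested and called under 0.05. The 15 libraries of a muscle entered each comparison of states, and all 30 each comparison of muscles. The SE is the log2 fold change divided by the square root of F. Only the tests of PRE against SA in SOL and of SOL against EDL in SA were also run on simulated counts. The outcome is not given here, so nothing about power is read from it.

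SOL and EDL libraries of 1 state and number were taken as pairs because their deviations correlated above 0.1 in 15 of 15 pairs; this comes from the data, not the labels. Between states of a muscle, same numbers had a median correlation of -0.01 and are not pairs. Alternatives were DESeq2 1.42.0, its size factors, no filter, a replicate block, fewer libraries, and other settings of the rule.

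The members and lists were chosen with earlier results of these data known. The 4 members given by number are those with the 2 deepest troughs and, of the others, the 2 largest rises of the median from HIB to IBA. Members given by rank only were chosen for their calls or after their values were seen. Gene lists by symbol were not used, as no identifier has a symbol.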

Additional observations from a re-analysis of the deposited data

How the results depend on the processing

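The rule gave 51 members with TMM factors, 49 of them the same, 58 with a level of 50, and 51 with size factors from all identifiers, chosen after seeing the data. With group means it gave 49, of which 34 were among the 51. It gave 15 with a fold of 2, and 10 when all HIB libraries had to lie below all others in both muscles, also chosen after seeing the data. Leaving out each library it gave 42 to 57. For the same 51 members, not chosen again, the mean level in HIB minus that of the other states was -1.59 in SOL and -1.57 in EDL. Leaving out each library of the muscle, it ran from -1.67 to -1.54 and from -1.64 to -1.51. The members were chosen for this trough with all libraries, so these ranges are a description only.

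Counts of called members moved with the tool and the libraries, for causes that were not tested, and fits with fewer libraries have less power. By DESeq2 they were 1 for PRE against SA in SOL and 1 in EDL, 1 for POST against IBA in SOL and 2 in EDL, 4 for POST against SA in SOL and 6 in EDL, and 2 and 1 for SOL against EDL in SA and IBA. With only the 6 libraries compared, PRE against SA in SOL called 1, beside 424 of 15687 identifiers. POST against SA in EDL then called 2, beside 283 of 15427. With the replicate number as a block across states, where numbers are no pairs, POST against SA in EDL called 1, member 21. This stood beside 1081 of 16299 identifiers, and no other state count of members changed. With the pairing of SOL and EDL the counts were 5, 3, 4, 5 and 12 in SA, PRE, HIB, IBA and POST. Leaving out single libraries, the counts ran from 0 to 2 for POST against IBA in SOL and for POST against SA in EDL, and from 0 to 8 for POST against SA in SOL, the 8 without POST replicate 3, beside 12.8% of all identifiers. The 2 for POST against IBA in SOL came without POST replicate 3, beside 118 of 16686 identifiers. For SOL against EDL the counts ran from 0 to 1 in SA, PRE and HIB. Over all identifiers they ran from 523 to 727, 429 to 472 and 315 to 377. In POST they ran from 1 to 7 members. The 1 came without SOL replicate 1, beside 1605 of 17231 identifiers. The 7 came without SOL replicate 2, beside 1391 of 17218, or without SOL replicate 3, beside 1253 of 17183. DESeq2 size factors and no filter changed no count of called members.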

Other observations

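The 5 other identifiers of the same table whose log2 values were most like the mean of the members' standardised values over the 30 libraries had Pearson r of 0.84 to 0.88, a description since the libraries share states and the trough enters the measure. Their troughs in the shallower muscle were 1.33-fold to 1.44-fold, just under the threshold of 1.5.

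In SA, PRE and POST too, the members were not spread evenly over the libraries as the lowest of a group. In SOL, PRE replicate 1 was lowest for 35 of 51 members, POST replicate 3 for 32 and SA replicate 2 for 28, beside 33.1%, 40.2% and 34.8% of the other identifiers of that level. In EDL no single library led so far. PRE replicates 1, 2 and 3 were lowest for 23, 7 and 21 members, beside 33.3%, 31.4% and 35.3% of the other identifiers. POST replicates were lowest for 25, 6 and 20, beside 37.2%, 27.5% and 35.2%. SA replicates were lowest for 18, 24 and 9, beside 35.1%, 33.4% and 31.4%. In HIB, replicates 1, 2 and 3 were lowest for 18, 16 and 17 members in SOL, beside 36.1%, 34.6% and 29.2% of the other identifiers. In EDL they were lowest for 16, 19 and 16, beside 33.4%, 33.4% and 33.3%.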
